A study of Mus musculus with 16 samples.

Results

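The comparison set P19CL6 cultures after 8 days in dimethyl sulfoxide (DMSO), replicates B and C, against cultures after 6 days, replicates B and C. These are 4 of the series' 16 arrays, 2 against 2, taken by their labels, with replicate A of day 8 left out for the reason given next. The series holds no replicate A of day 6. P19CL6 is a line of mouse embryonal carcinoma cells, the stem cells of a teratocarcinoma, of which a part turns into beating heart muscle in DMSO. All 4 cultures grew in medium with 1% DMSO, renewed every 48 h. RNA of whole cultures was hybridised to 1 Affymetrix mouse array per culture, and the series also holds 3 growth cultures without DMSO and cultures of days 4, 10 and 12 (3, 3 and 2). The labels describe the samples of a group as independent and name 1 cell line, so the spread is that between cultures of this line. No culture was kept as long without DMSO, so that time in DMSO and time in culture cannot be told apart.

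The third day 8 culture, replicate A, was left out because its array lay with the day 6 arrays, and its value is given beside those of B and C. Over the 10802 genes tested, day 8 A correlated at 0.992 and 0.990 with day 6 B and C, but at 0.967 and 0.956 with day 8 B and C. Day 8 B and C correlated at 0.987 with each other, and at 0.949 to 0.965 with the day 6 arrays. These are descriptions over genes, which are not independent. Because A was left out for its values, p-values of the comparison without it are too small. They concern the difference between these 4 arrays, with the spread estimated over 15 arrays of all groups. They do not stand for day 8 as the labels define it.

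Both fits were therefore made. A probe set was called at a Benjamini-Hochberg adjusted p under 0.05 (limma) and a difference of at least 1 on the log2 scale. Of 18970 probe sets that name 1 gene, 601 (3.17%) were called higher and 299 (1.58%) lower in day 8 B and C than on day 6, which is 4.74% in all. With all 3 day 8 arrays, 0 were called higher and 4 (0.0211%) lower, where 1909 had an unadjusted p under 0.05. The 4 lower probe sets were those of Evx1 and Irf1 and the dimmer probe sets of Lef1 and Six4 called from B and C as well. Of the 560 genes called from B and C, 2 kept the call with all 3 arrays, Evx1 and Irf1 (0.0185% of genes). Each of the 560 kept the sign of its difference, which is no support, since B and C are 2 of the 3 arrays. The adjusted p of the 560 with all 3 arrays ran from 0.0103 to 0.804, with a median of 0.393. Below, "rose" and "fell" mean called for day 8 B and C against day 6.

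Counted by gene, with each gene read from its probe set of highest mean signal, 376 genes rose (3.48%) and 184 fell (1.7%), 5.18% in all. The groups did not overlap in 543 of these genes (5.03% of all tested), where 6023 of all genes tested (55.8%) did not overlap. The median difference was 1.82 among the risen genes and -1.54 among the fallen. Of the risen genes, 163 differed by at least 2 on the log2 scale and 22 by at least 4. Of the fallen, 47 differed by at least 2 and 0 by at least 4. On day 6, 102 of the risen genes were dim, which means that both arrays lay under a log2 signal of 4, and 27 of the fallen were dim in day 8 B and C. A fold against a dim group is given as a lower bound, measured from that cutoff. Where only 1 array of a group lay under the cutoff, the fold was taken from the values as they stand. Without day 8 C, 188 genes were called higher and 54 lower, and without day 8 B, 353 and 187. Leaving out day 6 B gave 231 higher and 93 lower, and leaving out day 6 C gave 211 and 72. In all, 160 risen and 41 fallen genes kept their call without each of the 4 arrays, and the fold of 60 of the 560 called genes moved by over 1.5 times without 1 of them.

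Among probe sets outside this count, 2.99% of those with several gene names and 1.84% of those with no gene name here were called either way.

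**Figure D1:**
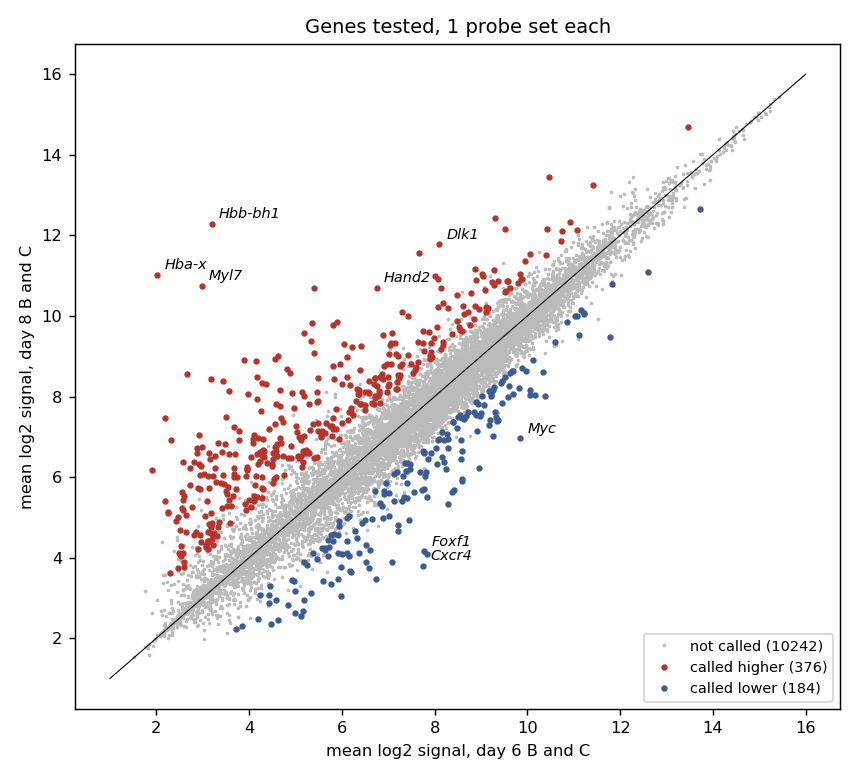
Mean log2 signal of day 8 B and C (vertical) against that of day 6 B and C (horizontal) for 10802 genes, 1 point each, with the line of equal values. Red points are the 376 genes called higher and blue points the 184 called lower. Hbb-bh1, Hba-x and Myl7 stand farthest above the line, and Cxcr4 and Foxf1 far below it.

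The scales of the deposited, already processed values were alike, which does not test how alike the arrays were before processing. Medians of all 16 arrays ran from 3.16 to 3.27, and on the 5 arrays of days 8 and 6 between 40.4 and 40.8% of probe sets lay above 4. Affymetrix hybridization controls averaged 9.03 and 9.67 on day 8 B and C (8.64 on A), against 9.68 and 9.56 on day 6, so that B lay below C and A below both. The 18S rRNA probe sets averaged 6.19 and 5.48 (6.88 on A), against 6.02 and 6.62 on day 6. For Actb, the 3′ probe set exceeded the 5′ one by 0.84 and 1.02 (0.81 on A), against 0.79 and 0.68 on day 6, so that day 8 C was highest here and lowest in 18S rRNA. Their part in the results was not tested. Pou5f1, a gene of embryonal carcinoma cells, averaged 14.3 in growth and read 8.00 and 7.07 on day 8 B and C (7.46 on A), against 8.86 and 9.11 on day 6, with an adjusted p of 0.267.

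In the embryo, cells that pass through the primitive streak become mesoderm, whose first derivatives include heart muscle, vessel lining and the primitive red cells of the yolk sac. Wnt, Nodal and FGF signals keep cells in the streak state, and streak genes such as Eomes, Mesp1 and Evx1 are switched off as heart genes come on. Heart muscle genes are driven by factors such as Mef2, Gata, Hand and serum response factor (SRF), the last of which binds CArG boxes together with myocardin (Myocd). Primitive red cells make the embryonic globins, among them the zeta chain of Hba-x and the beta-like chain of Hbb-bh1.

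The promoters of Hba-x, Myl7, Actc1 and Cxcr4 are shown because these genes stand for the globins, for the contractile apparatus and for the falls. Each sequence is the 250 bases before the RefSeq transcript start on GRCm38.p6, 5′ to 3′ on the gene's own strand, and positions count back from the start. Hba-x lies at chr11:32276350-32276599 on the plus strand, Myl7 at chr11:5898783-5899032, Actc1 at chr2:114052876-114053125 and Cxcr4 at chr1:128592300-128592549 on the minus strand. Capitals mark 3 motifs searched on both strands: TATAAA, the GATA motif (GATA with A or T before it and A or G after it), and the CArG box of SRF.
Hba-x: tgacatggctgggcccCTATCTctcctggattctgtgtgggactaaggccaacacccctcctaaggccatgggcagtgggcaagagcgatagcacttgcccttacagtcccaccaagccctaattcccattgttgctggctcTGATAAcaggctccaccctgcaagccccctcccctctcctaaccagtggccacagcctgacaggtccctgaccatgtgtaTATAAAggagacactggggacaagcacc
Myl7: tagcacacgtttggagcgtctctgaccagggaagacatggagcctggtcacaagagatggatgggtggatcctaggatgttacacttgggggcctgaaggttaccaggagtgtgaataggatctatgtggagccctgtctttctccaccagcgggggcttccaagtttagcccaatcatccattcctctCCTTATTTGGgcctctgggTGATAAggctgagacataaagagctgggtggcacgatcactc
Actc1: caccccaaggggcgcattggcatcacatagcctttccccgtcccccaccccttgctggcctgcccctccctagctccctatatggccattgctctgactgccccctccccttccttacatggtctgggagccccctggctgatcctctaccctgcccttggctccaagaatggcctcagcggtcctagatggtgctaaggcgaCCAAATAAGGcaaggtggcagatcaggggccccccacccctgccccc
Cxcr4: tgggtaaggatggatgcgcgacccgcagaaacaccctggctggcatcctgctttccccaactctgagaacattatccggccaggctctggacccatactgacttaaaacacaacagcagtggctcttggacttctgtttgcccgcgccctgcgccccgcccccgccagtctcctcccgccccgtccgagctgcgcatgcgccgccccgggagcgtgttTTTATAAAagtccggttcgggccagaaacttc
Hba-x holds a GATA match at -234 to -229 (as CTATCT), another at -108 to -103 and TATAAA at -28 to -23. Myl7 holds a CArG box at -61 to -52 and a GATA match at -42 to -37, and Actc1 a CArG box at -47 to -38. The sarcomere gene Tnnt2 was searched as well and is not shown. Before the first of its 2 listed starts it holds a GATA match at -166 to -161 and no CArG box. In Cxcr4 the capitals span overlapping matches, TATAAA at -30 to -25 and its reverse at -32 to -27. Of 27025 promoters of this length, 13% hold TATAAA, 27.1% a GATA match and 1.4% a CArG box. In the sarcomere list described below, 16 genes called higher have an entry. Of these, 4 (25%) hold a CArG box, 7 (43.8%) a GATA match and 0 TATAAA. A CArG box was also found in 1 of 4 smooth muscle genes called higher and in 1 of 5 primitive streak genes called lower. A match is a run of letters and no measured binding.

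Among genes with a probe set of their own, the embryonic globins showed the largest rises. Hbb-bh1, the embryonic beta-like globin, read 11.96 and 12.63 on day 8 B and C (2.95 on A), against 3.45 and 2.93 on day 6. It was at least 314-fold higher, a difference of 9.10 ± 0.37 (SE) on the log2 scale with an adjusted p of 3.09e-08. Day 8 A lay between the day 6 arrays, and the adjusted p was 0.364 with all 3 day 8 arrays. Hba-x, the embryonic zeta chain, read 10.77 and 11.28 (2.04 on A), against 2.05 and 2.00, and was at least 130-fold higher (difference 9.0 ± 0.28, adjusted p = 5.25e-09, and 0.363 with all 3). Growth cultures averaged 3.22 and 2.00 and day 4 cultures 3.14 and 2.04 for Hbb-bh1 and Hba-x, in that order of genes. In bulk RNA, more cells of a type and more RNA per cell cannot be told apart.

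Of 19 tested genes of globins, heme synthesis and red cells, 4 rose (21.1%, against 3.48% of all genes) and 0 fell. The median difference of the 19 was 0.04, against -0.01 over all genes. The other risen members were Gypc, a red cell membrane protein, and Slc4a1, the red cell anion exchanger. Gypc read 6.13 and 6.45 on day 8 B and C (4.81 on A), against 4.08 and 4.89 on day 6 (3.48-fold, adjusted p = 0.00873). Slc4a1 read 4.45 and 5.05 (3.18 on A), against 3.28 and 3.09, at least 1.69-fold higher (adjusted p = 0.0233). Both calls were lost without day 8 C or day 6 B, and that of Slc4a1 also without day 6 C. Those of the 2 globins were kept without each array. Hbb-y, the other embryonic beta-like globin, stayed dim at 2.99 and 2.93 (3.06 on A), against 2.95 and 2.89. Alas2, which starts heme synthesis in red cells, read 2.07 and 4.30 (1.77 on A), against 1.77 and 1.76 (adjusted p = 0.141). The red cell factor Klf1 read 3.06 and 4.16 (3.04 on A), against 3.04 and 2.99, and Gata1 at most 2.93 on these arrays. These 3 genes were highest on day 8 C. The probe set shared by the adult beta globins read 2.19 and 2.74 (2.17 on A), against 2.18 and 2.08. Of the probe sets shared by several genes, which were fitted apart, 3 name the adult alpha globins Hba-a1 and Hba-a2 and were called higher, by 9.22 ± 0.28, 7.90 ± 0.27 and 5.83 ± 0.47 (SE) on the log2 scale (limma). They were singled out after their values were seen. The first read 10.62 and 11.70 (1.90 on A), against 1.99 and 1.89. The 2 probe sets that name either gene alone were at most 3.14 on the 5 arrays, so that probe sets of these near-identical genes disagreed.

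**Figure D2:**
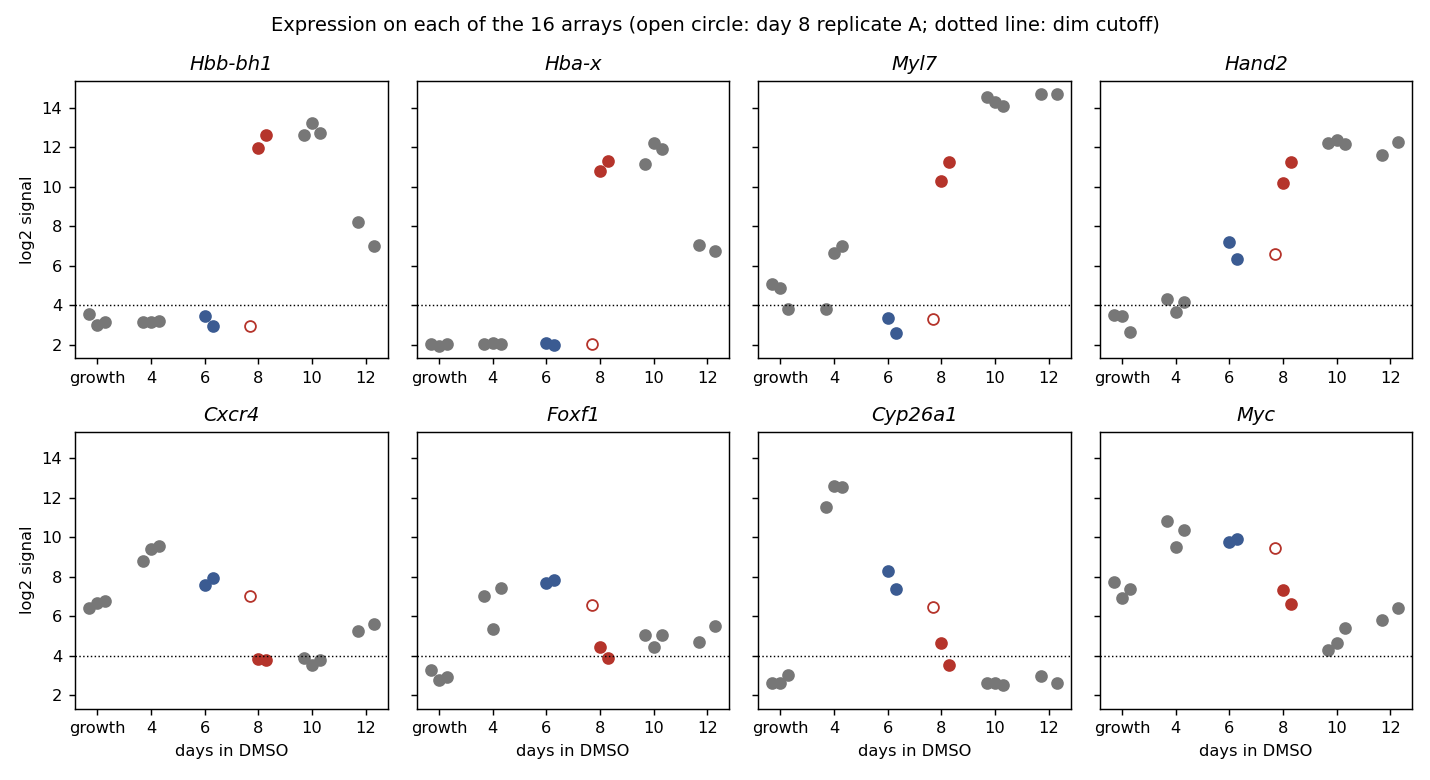
Log2 signal (vertical) of 8 genes on each of the 16 arrays by days in DMSO (horizontal, growth first), with day 6 in blue, day 8 B and C in red, day 8 A as an open circle and the other groups in grey. The dotted line is the cutoff of 4. Hbb-bh1, Hba-x and Myl7 are below it on day 6 and on day 8 A and above 10 on day 8 B and C, and Cxcr4 lies under it in B and C.

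Genes of the sarcomere, the contractile unit of striated muscle, gave the most rises of the 29 lists examined. The list also holds muscle genes beyond the contractile parts, among them Myocd, Cryab and Ankrd1. Of 32 tested, 18 rose (56.2%, against 3.48% of all genes) and 0 fell, with a median difference of 2.23. Without day 8 C or day 6 C 13 were called higher, without day 6 B 15 and without day 8 B 19, and 13 kept their call without each array. With all 3 day 8 arrays 0 of the 32 were called, and the median difference was 1.71. On day 6, 18 of the 32 were dim, and in day 8 B and C 5.

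Myl7, the atrial regulatory light chain of myosin, read 10.27 and 11.23 on day 8 B and C (3.27 on A), against 3.36 and 2.60 on day 6. It was at least 108-fold higher (difference 7.77 ± 0.81, adjusted p = 0.000109, and 0.363 with all 3). Growth cultures averaged 4.56 and day 4 cultures 5.82, so that day 6 was below both, and day 10 averaged 14.3. Myl4, the atrial essential light chain, read 8.28 and 8.48 (3.60 on A), against 3.14 and 3.76, at least 20.8-fold higher (adjusted p = 5.15e-07). Csrp3, the muscle LIM protein of the Z disc, read 7.89 and 8.97 (3.10 on A), against 3.28 and 3.08, at least 21.5-fold higher (adjusted p = 8.91e-07). In each of the 3 genes, day 8 A lay at the day 6 level.

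Tnnt2, cardiac troponin T, read 8.90 and 10.77 on day 8 B and C (6.03 on A), against 6.21 and 5.60 on day 6, 15.3-fold higher (adjusted p = 0.000154). Of its 2 other probe sets, 1 was called higher and 1 differed by 0.02. Mybpc3, cardiac myosin binding protein C, read 7.08 and 7.03 (3.16 on A), against 3.10 and 2.74, at least 8.32-fold higher (adjusted p = 1.19e-07). Tnni1, the slow troponin I of the embryonic heart, stood at 12.32 and 12.56 (9.39 on A), against 9.38 and 9.20, 8.86-fold higher (adjusted p = 0.000109). It was bright on day 6 already, unlike Mybpc3. Myh6, the atrial myosin heavy chain, was at least 3.34-fold higher at 4.48 and 7.0 (3.07 on A), against 3.12 and 3.15 (adjusted p = 0.0181), while its second probe set differed by 0.10. Myh7, the ventricular chain, was at least 5.91-fold higher, with 5.94 and 7.19 (3.48 on A), against 3.93 and 3.46 (adjusted p = 0.00265). The probe set of both chains read 3.68 and 6.39 (2.73 on A), against 2.67 and 2.48, and probe sets of these close copies can share signal. The call of Myh6 was lost without day 8 C or either day 6 array.

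Actc1, cardiac actin, read 4.90 and 6.18 on day 8 B and C (2.88 on A), against 2.89 and 2.29 on day 6, at least 2.91-fold higher (adjusted p = 0.00423). It averaged 12.04 on day 10, so that day 8 B and C stood early in its course. Ttn, the spring protein titin, was at least 7.05-fold higher at 6.25 and 7.39 (3.46 on A), against 3.49 and 3.46 (adjusted p = 0.000468), and 1 of its other probe sets differed by 0.01. Ldb3, a Z disc protein, read 6.01 and 7.50 (3.06 on A), against 3.08 and 2.91, at least 6.75-fold higher, with another probe set at -0.01. Cryab, a small heat shock protein of muscle, had 8.70 and 9.78 (7.09 on A), against 6.49 and 5.94, 8.14-fold higher. Tmod1, which caps actin filaments, had 7.17 and 7.78 (4.81 on A), against 4.64 and 4.72, 6.94-fold higher. Day 8 A lay 28.8% of the way to B and C for Cryab, and between -0.5% (Ttn) and 9.9% (Actc1) for the others of these 5. Myom1, Nebl and Tnnc1 rose as well, the last 2.71-fold, and the calls of Actc1, Nebl and Tnnc1 were lost without day 8 C or day 6 C.

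Ankrd1, a stress-responsive muscle ankyrin repeat protein, differed from the others in where day 8 A lay. It read 5.76 and 6.72 on day 8 B and C and 5.68 on A, against 3.95 and 3.96 on day 6, at least 4.73-fold higher (adjusted p = 0.00222, and 0.0701 with all 3). Myocd, the SRF partner, read 6.06 and 7.13 (2.68 on A), against 2.89 and 2.86, at least 6.05-fold higher, a call lost without day 8 C or either day 6 array. Day 8 A stood at the day 6 level for Myocd and near B for Ankrd1.

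Members that were not called included a gene of the ventricle and a gene of the adult heart. Myl2, the ventricular regulatory light chain, was at 2.36 and 2.32 (2.32 on A), against 2.33 and 2.30, and Tnni3, the adult cardiac troponin I, at 2.38 and 2.34 (2.34 on A), against 2.35 and 2.32. Neither was above the cutoff on any of the 5 arrays. Tpm1, the main striated tropomyosin, read 11.66 and 11.74 (11.60 on A), against 11.34 and 11.74 (adjusted p = 0.903), high on all 5. Unc45b, a myosin chaperone, read 8.78 and 9.59 (7.23 on A), against 7.08 and 6.98, a difference of 2.16 ± 0.85 with an adjusted p of 0.176. Xirp1 and Pdlim5 differed by 1.71 ± 0.50 and 1.35 ± 0.45 with adjusted p of 0.0631 and 0.103.

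**Figure D3:**
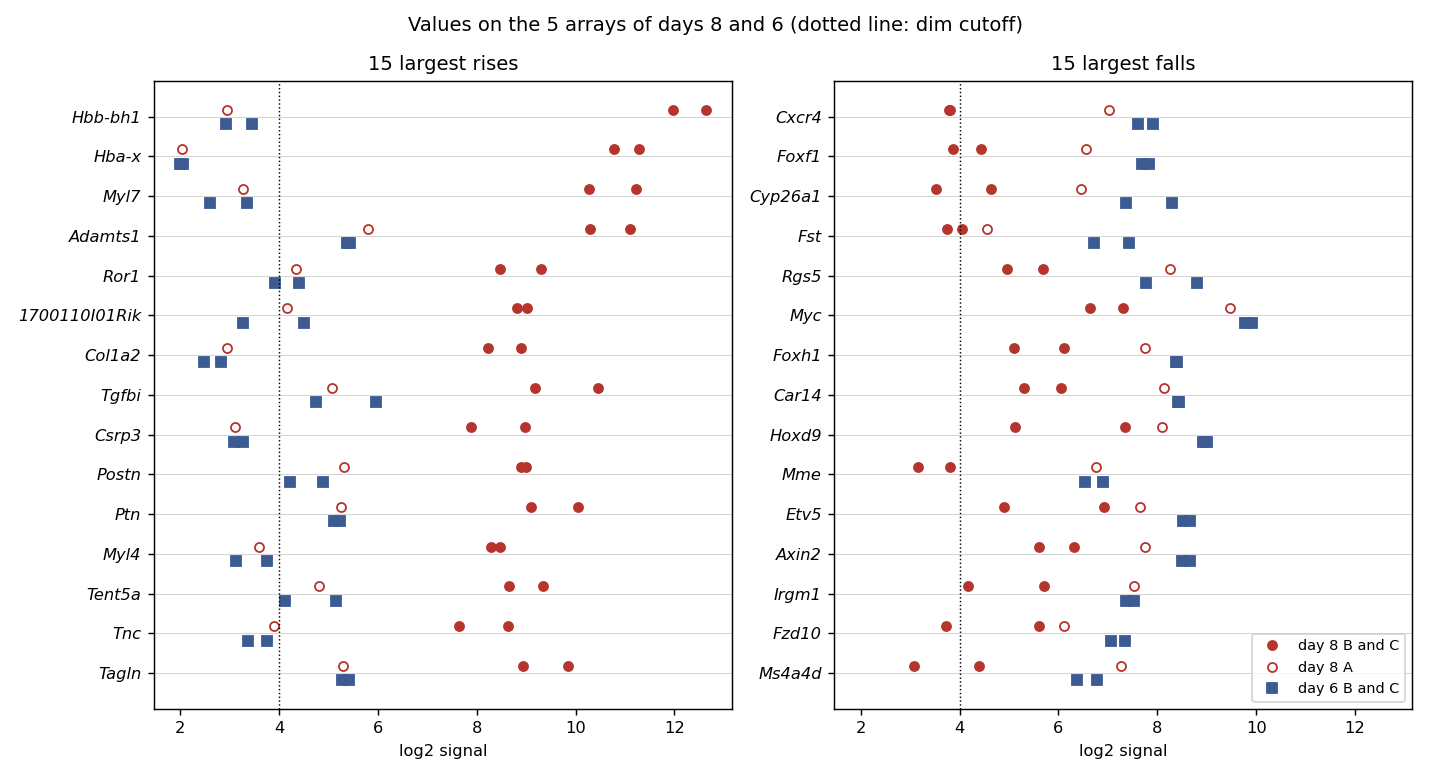
Log2 signal (horizontal) of the 15 genes with the largest rises (left) and the 15 with the largest falls (right), with day 8 B and C as filled circles, day 8 A as an open circle and day 6 B and C as squares. The dotted line is the cutoff of 4. Day 8 A lies close to the squares in most of the rises, and between the groups in several of the falls, among them Fst at 4.55.

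Cardiac transcription factors were divided. Of 28 tested, 4 rose and 2 fell, against 3.48% and 1.7% of all genes. Hand2, a bHLH factor of the second heart field and right ventricle, read 10.16 and 11.25 on day 8 B and C (6.57 on A), against 7.18 and 6.33 on day 6, 15.5-fold higher (adjusted p = 0.00011, and 0.393 with all 3), with 1 of its other 2 probe sets at 0.01. Mef2c, a MADS factor of muscle, read 9.29 and 9.75 (7.42 on A), against 7.48 and 6.28, 6.22-fold higher (adjusted p = 0.000756). Its 4 other probe sets were called the same way. Meis1, a homeobox cofactor, read 8.26 and 8.64 (5.58 on A), against 5.90 and 5.78, and Gata5, an endocardial and cardiac zinc finger factor, 6.72 and 7.21 (4.67 on A), against 4.91 and 4.44. These were 6.09-fold and 4.89-fold higher. The 4 calls were kept without each array.

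Mesp1, the transient master factor of cardiac mesoderm, read 2.68 and 2.45 on day 8 B and C (3.12 on A), against 5.32 and 4.94 on day 6, at least 2.19-fold lower (adjusted p = 0.00956). It had averaged 11.89 on day 4. Tbx3, a repressor of working muscle genes in the conduction system, read 8.06 and 6.74 (9.09 on A), against 9.06 and 9.63, 3.85-fold lower (adjusted p = 0.0184). Both calls were lost without day 8 C or either day 6 array. Factors of the early heart field were on at both days and not called: Tbx20 read 9.46 and 10.23 (9.62 on A), against 9.66 and 9.80, and Gata4 7.35 and 7.13 (7.18 on A), against 7.32 and 7.61. Isl1 of the second heart field read 9.57 and 10.02 (8.28 on A), against 8.50 and 8.24 (adjusted p = 0.147), and Gata6 had a difference of 0.95 ± 0.24 (adjusted p = 0.0337), under the size asked for a call. Nkx2-5 and Tbx5 were dim, at most 2.42 on the 5 arrays.

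Genes of ion channels, calcium handling and cardiac hormones gave 3 rises (15.8%, against 3.48% of all genes) and 0 falls among 19 tested. Without day 8 B 6 were called higher, and without any other 1 of the 4 arrays 3. Ryr2, the calcium release channel, read 6.71 and 6.96 on day 8 B and C (4.98 on A), against 4.85 and 4.51 on day 6, 4.46-fold higher (adjusted p = 0.000171). Jph2, which ties the calcium store to the cell membrane, read 5.43 and 6.70 (2.53 on A), against 2.47 and 3.39, at least 4.17-fold higher (adjusted p = 0.000256), with its second probe set at 0.45. Kcnh2, a repolarising potassium channel, read 6.76 and 6.76 (5.59 on A), against 4.78 and 5.02, 3.63-fold higher (adjusted p = 0.00302). Day 8 A was above both day 6 arrays for Ryr2 and Kcnh2. Atp2a2, the calcium pump, differed by 0.77 ± 0.16 (adjusted p = 0.0124), under the size asked for. Its inhibitor Pln read 3.60 and 6.75 (2.97 on A), against 3.00 and 2.92, so that day 8 C alone stood out. The hormone genes Nppa and Nppb were dim over the series and not tested.

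Smooth muscle genes, which early heart muscle also uses, rose in 5 of 12 tested (41.7%, against 3.48% of all genes) and fell in 0. All 5 kept their call without each array. Tagln, an actin-binding protein, read 8.93 and 9.84 on day 8 B and C (5.29 on A), against 5.27 and 5.41 on day 6, 16.5-fold higher (adjusted p = 0.000209). Acta2, smooth muscle actin, read 10.80 and 12.30 (7.59 on A), against 7.28 and 8.06, 14.8-fold higher (adjusted p = 0.00159), and its second probe set differed by 0.16. Myl9, Synpo2 and the intermediate filament gene Des were at least 4.16-fold, 3.34-fold and 3.38-fold higher. Myl9 read 5.65 and 6.47 (4.04 on A), against 3.18 and 3.71, and Synpo2 4.90 and 6.58 (2.90 on A), against 2.92 and 2.87. Des read 5.86 and 5.65 (3.52 on A), against 3.29 and 3.79, so that A was above both day 6 arrays in Myl9 and within them in Synpo2 and Des. Cnn1, a marker of differentiated smooth muscle, was dim at 2.84 and 2.80 (2.81 on A), against 2.88 and 2.78, and Myh11 was dim over the series. Skeletal muscle genes gave 0 calls, since 20 of 24, Myod1 and Myog among them, were dim and the 4 tested averaged 3.04 and 2.94 (2.96 on A), against 3.03 and 2.90.

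Genes of the extracellular matrix came next in the number of rises. Of 37 tested matrix genes other than collagens, 12 rose (32.4%, against 3.48% of all genes) and 0 fell, with a median difference of 0.85. Without 1 array, between 7 (day 6 C) and 10 were called higher. Adamts1, a protease that cuts versican, read 10.29 and 11.11 on day 8 B and C (5.80 on A), against 5.44 and 5.37 on day 6, 39.3-fold higher (adjusted p = 8.51e-07). Postn, periostin of cardiac cushions and fibroblasts, read 8.89 and 9.0 (5.32 on A), against 4.22 and 4.88, 21.0-fold higher (adjusted p = 8.91e-07). Tnc, tenascin C, read 7.65 and 8.63 (3.89 on A), against 3.76 and 3.37, at least 17.7-fold higher (adjusted p = 0.000758). Day 8 A was above both day 6 arrays in Adamts1, Postn and Tnc, at 7.4, 17.5 and 7.1% of the way to B and C.

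Timp3, a metalloproteinase inhibitor, was 15.6-fold higher at 7.98 and 8.65 (4.64 on A), against 3.99 and 4.73 (adjusted p = 0.000977). Thbs1, thrombospondin 1, read 5.24 and 6.18 (2.58 on A), against 2.56 and 3.31, at least 3.27-fold higher (adjusted p = 0.00112). Ccn1, a matricellular protein and common target of SRF and Yap, read 10.08 and 9.92 (7.87 on A), against 7.45 and 7.42, 5.90-fold higher, and its 3 other probe sets were called too. Its relative Ccn2 read 9.0 and 9.54 (6.62 on A), against 7.02 and 7.08, 4.68-fold higher, but lost the call without any 1 of the 4 arrays. Fbln5, Nid1, Timp1, Eln and Fmod were the other risen members, each losing the call without at least 1 array. Eln, elastin, stayed near the cutoff at 3.45 and 4.02 (2.59 on A), against 2.51 and 2.43. Fn1, fibronectin, was high at both days and differed by 0.95 ± 0.24 (adjusted p = 0.031), and versican (Vcan) by 1.83 ± 0.74 (adjusted p = 0.185).

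Among 31 collagen genes and collagen-modifying enzymes tested, 5 rose (16.1%, against 3.48% of all genes) and 0 fell. There were 2 rises without day 8 C and 3 without day 6 C. Col1a2, a chain of type I collagen, read 8.22 and 8.89 on day 8 B and C (2.94 on A), against 2.49 and 2.82 on day 6, at least 23.5-fold higher (adjusted p = 6.98e-07), with a second probe set called too. Its partner chain Col1a1 did not follow: it read 3.43 and 4.13 (4.72 on A), against 4.30 and 5.05, a difference of -0.90 ± 0.51 (adjusted p = 0.386). Col5a2 and Col5a1, the chains of type V collagen, were 7.91-fold and 4.06-fold higher. Col5a2 read 10.73 and 11.23 (8.39 on A), against 8.01 and 7.99, and Col5a1 10.78 and 11.30 (8.96 on A), against 8.89 and 9.14. Col3a1 was at least 1.55-fold higher, with a second probe set at a difference of 0.00, and Col4a2 2.03-fold higher (adjusted p = 0.0137). Col3a1 read 4.0 and 5.26 (3.00 on A), against 2.90 and 2.83, and Col4a2 9.80 and 9.76 (8.86 on A), against 8.63 and 8.89. The call of Col5a1 was lost without day 8 C and that of Col3a1 without day 8 C or day 6 C. That of Col4a2 was lost without any 1 of the 4 arrays.

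TGF-beta and BMP signalling genes gave 5 rises (13.9%) and 3 falls (8.33%) among 36 tested, against 3.48% and 1.7% of all genes. There were 3 rises without day 8 C or day 6 B, and at most 1 fell without day 8 C or either day 6 array. Tgfbi, a matrix protein induced by TGF-beta, read 9.18 and 10.46 on day 8 B and C (5.07 on A), against 4.75 and 5.96 on day 6, 22.1-fold higher (adjusted p = 7.05e-05), with its 3 other probe sets called too. Tgfb2, the ligand of cushion formation, read 9.45 and 9.69 (7.05 on A), against 7.40 and 6.75, 5.64-fold higher (adjusted p = 0.000652). Its coreceptor Tgfbr3 was 3.31-fold higher at 9.41 and 9.79 (7.91 on A), against 7.78 and 7.97, with its second probe set at 0.24. Ltbp1, which stores latent TGF-beta, and Id4, an inhibitor of bHLH factors, were 3.17-fold and 2.13-fold higher. Both calls were lost without day 8 C or day 6 B, and that of Ltbp1 also without day 6 C. Ltbp1 read 7.35 and 7.58 (5.50 on A), against 5.78 and 5.82, and Id4 9.27 and 9.29 (7.89 on A), against 8.09 and 8.28, with A under both day 6 arrays. The falls were Fst, described with the streak genes, and the BMP target factors Msx1 and Msx2. Msx2 read 8.24 and 7.84 (9.51 on A), against 10.23 and 9.86, 4.02-fold lower (adjusted p = 0.031), and Msx1 8.39 and 8.02 (9.24 on A), against 9.76 and 9.89, 3.08-fold lower (adjusted p = 0.00538). In both, day 8 A lay between the groups. The call of Msx2 was lost without any 1 of the 4 arrays, and that of Msx1 without day 8 C or day 6 C. Bmp4 was at 11.10 and 11.53 (10.95 on A), against 11.27 and 11.23, and Bmp2 likewise was not called (adjusted p = 0.983 and 0.992).

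Wnt genes were called in both directions. Of 36 tested, 2 rose and 5 fell, against 3.48% and 1.7% of all genes. Ror1, a receptor of noncanonical Wnts, read 8.48 and 9.31 on day 8 B and C (4.35 on A), against 4.41 and 3.91 on day 6, 26.7-fold higher (adjusted p = 2.21e-06). Sfrp1, a secreted Wnt antagonist, read 7.96 and 8.37 (4.85 on A), against 4.96 and 4.39, 11.2-fold higher (adjusted p = 2.31e-06). Axin2, the feedback target of canonical Wnt, read 6.32 and 5.60 (7.75 on A), against 8.50 and 8.66, 6.16-fold lower (adjusted p = 0.00302, and 0.0513 without day 8 C). The rises were kept without each array, and day 8 A was again within the day 6 values in them but 31.6% of the way down for Axin2.

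Lef1, the nuclear effector of Wnt, read 6.84 and 6.47 on day 8 B and C (8.45 on A), against 8.92 and 8.25 on day 6, 3.82-fold lower (adjusted p = 0.00185). Its second probe set differed by -3.14 and was among the 4 called with all 3 day 8 arrays. Nkd1, a Wnt-induced antagonist, was 4.15-fold lower at 5.93 and 5.50 (7.44 on A), against 7.53 and 8.01. Its 3 other probe sets differed by -2.65 to -0.09, and 1 of them was called. The receptor gene Fzd10 read 5.60 and 3.73 (6.11 on A), against 7.35 and 7.07, 5.85-fold lower, and the ligand gene Wnt5b 3.52 and 3.32 (4.19 on A), against 5.76 and 5.42, at least 3.01-fold lower, with its second probe set at -0.62. The calls of Axin2, Nkd1, Fzd10 and Wnt5b were lost without day 8 C, which left 1 fall of this list (3 without either day 6 array), and that of Lef1 was kept without each array. Wnt5a differed by -1.76 ± 0.60 (adjusted p = 0.115) and Wnt11 by 1.30 ± 0.36 (adjusted p = 0.0523).

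Other signalling genes that rose included Jag1, a Notch ligand, at 8.78 and 9.73 on day 8 B and C (5.70 on A), against 6.57 and 6.24 on day 6, 7.20-fold higher (adjusted p = 0.000209). Cdon, a Hedgehog coreceptor, had 9.83 and 10.60 (8.23 on A), against 8.03 and 8.14, 4.39-fold higher (adjusted p = 0.000853). They were the 2 rises among 26 genes of Notch and Hedgehog signalling tested (7.69%, against 3.48% of all genes), of which 0 fell. Ptn, the secreted growth factor pleiotrophin, read 9.09 and 10.05 (5.26 on A), against 5.24 and 5.12, 21.0-fold higher (adjusted p = 3.3e-05), although 1 of its 2 other probe sets differed by 0.01. Tent5a, a poly(A) polymerase, was 20.7-fold higher at 8.66 and 9.35 (4.80 on A), against 5.15 and 4.12. The gene 1700110I01Rik read 8.81 and 9.02 (4.16 on A), against 3.27 and 4.51, 32.6-fold higher (adjusted p = 5.07e-05).

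**Figure D4:**
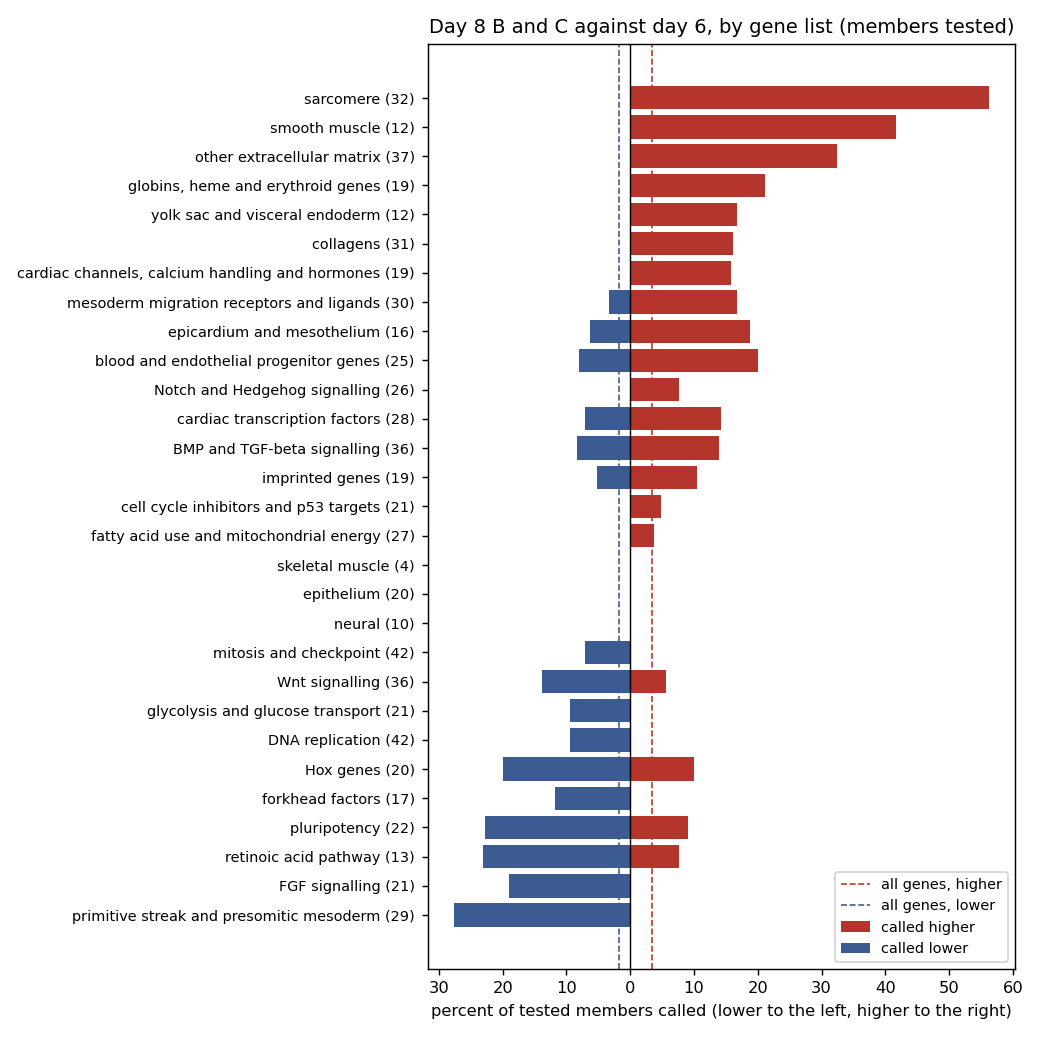
Percent of the tested members of each of 29 gene lists (number tested in brackets) called higher (red, to the right) or lower (blue, to the left) in day 8 B and C against day 6. Dashed lines mark the shares over all genes, 3.48% higher and 1.7% lower. Sarcomere genes have the longest red bar, 56.2%, and primitive streak genes the longest blue bar, 27.6%.

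Genes of migrating mesoderm gave 5 rises (16.7%) and 1 fall (3.33%) among 30 tested, against 3.48% and 1.7% of all genes. The fall, of Cxcr4, was the largest of the 184. Cxcr4, the receptor of the chemokine Cxcl12, read 3.81 and 3.79 on day 8 B and C (7.02 on A), against 7.60 and 7.91 on day 6, at least 13.5-fold lower (adjusted p = 1.23e-06, and 0.263 with all 3). It had averaged 6.61 in growth and 9.24 on day 4, and averaged 3.74 on day 10. Its ligand Cxcl12 went the other way, with 8.23 and 8.67 (5.14 on A), against 5.66 and 5.33, 7.75-fold higher (adjusted p = 0.0084), and a second probe set was called too. Ackr3, the scavenging receptor of the same ligand, differed by 1.41 ± 0.70 (adjusted p = 0.305). Pdgfc, Efnb2, Slit2 and Flrt3 were 4.13-fold, 3.64-fold, 3.20-fold and 2.05-fold higher. Pdgfc, a growth factor, read 9.06 and 9.05 (6.96 on A), against 7.05 and 6.97, and Efnb2, an ephrin, 10.92 and 11.35 (9.38 on A), against 9.22 and 9.33. Slit2, a guidance ligand, read 9.41 and 10.06 (7.34 on A), against 8.17 and 7.94, and Flrt3 9.13 and 9.23 (7.96 on A), against 8.12 and 8.16. Day 8 A was below both day 6 arrays in Cxcl12, Pdgfc, Slit2 and Flrt3. All 5 rises of this list were lost without day 8 C or day 6 C, 1 was left without day 6 B and 4 were called without day 8 B, and the fall of Cxcr4 was kept without each array.

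Forkhead factors gave 2 falls (11.8%, against 1.7% of all genes) and 0 rises among 17 tested. Foxf1, a factor of lateral plate and extraembryonic mesoderm, read 4.44 and 3.87 on day 8 B and C (6.55 on A), against 7.70 and 7.84 on day 6, 12.2-fold lower (adjusted p = 0.00157, and 0.263 with all 3). A second probe set was called the same way. Foxh1, the DNA-binding partner of Nodal-activated Smads, read 6.12 and 5.11 (7.76 on A), against 8.37 and 8.40, 6.81-fold lower (adjusted p = 0.00304, and 0.0525 without day 8 C), with 2 other probe sets called too. In both genes day 8 A was below both day 6 arrays and nearer to them.

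Primitive streak and presomitic mesoderm genes fell in 8 of 29 tested (27.6%, against 1.7% of all genes) and rose in 0, with a median difference of -1.15. Without day 8 C 3 fell, without day 6 B or C 4 and without day 8 B 6. Cyp26a1, which breaks down retinoic acid, read 4.64 and 3.53 on day 8 B and C (6.45 on A), against 8.29 and 7.37 on day 6, 13.4-fold lower (adjusted p = 0.00019, and 0.19 with all 3). Eomes, a T-box factor of the streak, read 4.59 and 4.05 (6.07 on A), against 6.52 and 6.54, 4.62-fold lower (adjusted p = 0.000179). Evx1, a posterior streak homeobox factor, read 2.40 and 2.30 (2.71 on A), against 4.02 and 4.92, at least 1.39-fold lower (adjusted p = 0.00176). These 3 kept their call without each array. Evx1 was also called with all 3 day 8 arrays (adjusted p = 0.0477), and its day 8 A value was on the side of B and C.

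Fst, follistatin, an antagonist of activin and BMP, read 3.74 and 4.04 on day 8 B and C (4.55 on A), against 7.43 and 6.72 on day 6, 9.14-fold lower (adjusted p = 0.0246). Mixl1 read 2.23 and 2.21 (2.24 on A), against 4.06 and 3.38, and Nkx1-2 3.03 and 2.85 (3.46 on A), against 5.33 and 5.03, at least 2.27-fold lower. In Fst, Mesp1, Mixl1, Nkx1-2 and Evx1 day 8 A lay nearer to B and C than to day 6. The calls of Fst, Mixl1 and Nkx1-2 were lost without any 1 of the 4 arrays. Mixl1 had averaged 11.99 on day 4, and Eomes 11.70, so that day 6 stood late in the course of both. Cdx2 differed by -1.84 ± 0.51 (adjusted p = 0.0513), Nodal by -2.04 ± 0.58 (adjusted p = 0.0585) and Snai1 by -1.85 ± 0.59 (adjusted p = 0.094), 3 members that were not called. On day 6, 13 of the 29 were dim, and in day 8 B and C 20.

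Genes of FGF signalling also fell. Of 21 FGF genes tested, 4 fell (19%, against 1.7% of all genes) and 0 rose, with a median difference of -0.61. Without day 6 C 2 fell, without day 8 C or day 6 B 3 and without day 8 B 4. Etv5, a nuclear effector of FGF, read 6.92 and 4.90 on day 8 B and C (7.65 on A), against 8.66 and 8.53 on day 6, 6.41-fold lower (adjusted p = 0.00872, and 0.0786 at most without 1 array). Dusp4, an ERK phosphatase, read 8.23 and 7.80 (9.44 on A), against 10.65 and 10.10, 5.12-fold lower (adjusted p = 0.00285). Il17rd, the FGF antagonist Sef, read 7.94 and 7.76 (9.20 on A), against 9.55 and 9.38, 3.06-fold lower (adjusted p = 0.000198), and the receptor gene Fgfr2 was 2.47-fold lower at 6.6 and 6.85 (7.84 on A), against 7.93 and 8.13, a call lost without day 8 B or day 6 C. Day 8 A was below both day 6 arrays in all 4. Of 13 retinoic acid genes tested, 3 fell (23.1%) and 1 rose (7.69%), against 1.7% and 3.48% of all genes. Without day 8 C or either day 6 array 1 fell. Besides Cyp26a1 the fallen were Rarg, a retinoic acid receptor gene, and Crabp2, a retinoic acid carrier, 3.71-fold and 3.39-fold lower, both lost without day 8 C, and the risen was Rbp4. Rarg read 5.80 and 5.02 (6.26 on A), against 7.16 and 7.44, with A nearer to B and C. Crabp2 read 7.91 and 6.94 (8.95 on A), against 9.26 and 9.12, with A nearer to day 6.

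Among the other large falls, Myc, the growth-promoting factor, read 7.31 and 6.63 on day 8 B and C (9.47 on A), against 9.77 and 9.92 on day 6, 7.36-fold lower (adjusted p = 0.00249, and 0.0435 at most without 1 array). Rgs5, a regulator of G protein signalling, read 4.97 and 5.69 (8.26 on A), against 8.80 and 7.77, 7.72-fold lower (adjusted p = 0.00104). Mme, the cell surface peptidase neprilysin, read 3.15 and 3.80 (6.77 on A), against 6.91 and 6.54, at least 6.62-fold lower (adjusted p = 2.21e-06). Mme averaged 2.82 in growth, 2.71 on day 4 and 2.85 on day 10, so that it was high on the day 6 arrays and day 8 A and dim by mean in those groups. Car14, a carbonic anhydrase, was 6.71-fold lower at 6.06 and 5.30 (8.13 on A), against 8.44 and 8.42. Irgm1, an interferon-inducible GTPase, was 5.67-fold lower and Ms4a4d 7.21-fold lower, and both lost the call without day 8 C (adjusted p = 0.062 and 0.0504). Irgm1 read 5.70 and 4.18 (7.52 on A), against 7.53 and 7.36, and Ms4a4d 4.39 and 3.07 (7.27 on A), against 6.37 and 6.79. Day 8 A was within the day 6 values for Irgm1 and above both for Ms4a4d, on the far side from B and C. Irf1, an interferon regulatory factor, read 6.06 and 6.00 (6.50 on A), against 7.89 and 7.68, 3.38-fold lower (adjusted p = 7.29e-05, and 0.0103 with all 3). It is named outside the naming rule, as one of the genes called in both fits.

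Pluripotency genes gave 5 falls (22.7%) and 2 rises (9.09%) among 22 tested, against 1.7% and 3.48% of all genes. Lin28a, an RNA-binding block of let-7 processing, read 9.90 and 9.06 on day 8 B and C (11.24 on A), against 11.81 and 11.75 on day 6, 4.93-fold lower (adjusted p = 0.00672). Dnmt3b, a de novo DNA methyltransferase, read 7.61 and 7.24 (8.93 on A), against 9.49 and 9.23, 3.83-fold lower (adjusted p = 0.000621). Sall4, Mybl2 and Sall1 were 3.01-fold, 2.79-fold and 2.49-fold lower. Sall4 read 9.59 and 9.46 (10.68 on A), against 11.07 and 11.15, and Mybl2 5.64 and 5.05 (6.68 on A), against 6.56 and 7.09. Sall1 read 6.83 and 6.38 (7.55 on A), against 8.20 and 7.64, so that A lay nearer to day 6 in all 3. Without either day 6 array 2 fell. Without day 8 C, 1 of the 5 falls was kept, Dnmt3b, whose call was kept without each array. Klf5 and Klf4, which are also used by epithelia and smooth muscle, were 4.60-fold and 3.05-fold higher. Klf5 lost the call without day 8 B, day 8 C or day 6 B, and Klf4 without day 8 C or either day 6 array. Klf5 read 6.75 and 6.75 (4.51 on A), against 3.85 and 5.25, and Klf4 7.98 and 8.25 (6.48 on A), against 6.61 and 6.40. Sox2 read 8.53 and 8.34 (7.69 on A), against 7.97 and 8.48, and Nanog was dim, at most 3.58 on the 5 arrays.

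Cell cycle genes read lower at the median, with few large differences. Of 42 mitosis genes tested 3 fell (7.14%) and 0 rose, and of 42 DNA replication genes 4 fell (9.52%) and 0 rose, against 1.7% fallen of all genes. Without 1 array the falls were 2 to 5 and 3 to 6, with 5 mitosis genes fallen without day 6 C and 6 replication genes fallen without day 8 B or day 6 C. The median difference was -0.66 in both lists, against -0.01 over all genes, and -0.42 and -0.43 with all 3 day 8 arrays. Mitosis genes averaged 8.74 and 8.72 on day 8 B and C (9.44 on A), against 9.40 and 9.28 on day 6. Replication genes averaged 8.73 and 8.62 (9.35 on A), against 9.34 and 9.25. Cdc20, an activator of the anaphase complex, read 10.11 and 10.06 (10.91 on A), against 11.33 and 11.09, 2.18-fold lower (adjusted p = 0.00206). Mcm6, a subunit of the replicative helicase, read 10.14 and 9.97 (11.01 on A), against 11.12 and 11.30, 2.23-fold lower (adjusted p = 0.00219). Mcm10, Pold1, Pole, Kif20a and Cenpf were the other falls, by 2.05-fold to 2.43-fold. Day 8 A read 8.40, 9.95, 9.09, 9.74 and 9.82 for these 5 genes in that order, above both day 6 arrays for Pold1, Kif20a and Cenpf and below both for Mcm10. Mki67, the proliferation marker, read 10.44 and 10.47 (11.28 on A), against 11.03 and 10.95 (adjusted p = 0.0627). The averages of B and C lay below those of day 6 in both lists, and A lay at or above day 6.

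Of 21 cell cycle inhibitors and p53 targets tested, 1 rose (4.76%, near the 3.48% of all genes) and 0 fell. Gadd45a, a stress-induced growth arrest gene, read 9.20 and 9.40 on day 8 B and C (6.29 on A), against 5.89 and 6.21 on day 6, 9.51-fold higher (adjusted p = 0.00331). Cdkn1a, the inhibitor p21, read 7.16 and 6.93 (5.70 on A), against 6.11 and 6.01 (adjusted p = 0.512).

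Hox genes, which set positional identity along the body axis, gave 4 falls (20%) and 2 rises (10%) among 20 tested. Of all genes 1.7% fell and 3.48% rose. Hoxb4 and Hoxb5 were 2.97-fold and at least 1.52-fold higher. Hoxb4 read 6.51 and 6.45 on day 8 B and C (5.02 on A), against 4.87 and 4.95 on day 6, and Hoxb5 4.10 and 5.11 (2.88 on A), against 3.48 and 3.01. The fallen were Hoxd1, Hoxc8, Hoxd9 and Hoxc10. Hoxd9 read 7.35 and 5.12 (8.10 on A), against 8.93 and 9.0, 6.64-fold lower (adjusted p = 0.0326, and 0.353 at most without 1 array). Hoxc10 read 2.65 and 2.59 (2.74 on A), against 4.04 and 5.95, at least 1.99-fold lower (adjusted p = 0.00402, and 0.0655 with all 3). Hoxc8 was 5.24-fold lower at 5.74 and 3.90 (6.34 on A), against 7.28 and 7.15, and Hoxd1 at least 3.76-fold lower at 3.98 and 2.96 (3.85 on A), against 5.65 and 6.16. Day 8 A lay between B and C for Hoxd1. Without day 8 B 6 Hox genes fell, and without either day 6 array 1. Without day 8 C, Hoxc10 was the only fall left of 4, and Hoxd9 and Hoxc8 read 5.12 and 3.90 on day 8 C but 7.35 and 5.74 on day 8 B.

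Markers of vessel lining and blood precursors gave 5 rises (20%) and 2 falls (8%) among 25 tested, against 3.48% and 1.7% of all genes. There were 3 rises without day 8 B or either day 6 array. Tek, the endothelial angiopoietin receptor, read 6.59 and 7.26 on day 8 B and C (3.90 on A), against 3.79 and 3.79 on day 6, at least 7.60-fold higher (adjusted p = 0.000299). Ramp2, a coreceptor for adrenomedullin, read 6.35 and 5.40 (3.30 on A), against 3.29 and 3.28, at least 3.67-fold higher (adjusted p = 0.00019). Esam, Icam2 and Nrp1 rose as well, at least 1.09-fold and 1.17-fold and, for Nrp1, 2.55-fold. Esam read 4.06 and 4.17 (2.33 on A), against 2.68 and 2.49, and Icam2 4.61 and 3.84 (2.86 on A), against 2.92 and 2.87. Nrp1 read 11.86 and 12.36 (10.48 on A), against 10.86 and 10.65, so that A was below both day 6 arrays in all 3. Kdr, the VEGF receptor, read 6.44 and 6.92 (5.01 on A), against 5.31 and 5.28 (adjusted p = 0.0501). Etv2, the transient inducer of blood and endothelium, read 2.70 and 2.22 (4.68 on A), against 4.76 and 4.49, at least 1.54-fold lower (adjusted p = 0.00722), and Kit was 2.26-fold lower at 7.78 and 7.23 (8.30 on A), against 8.55 and 8.81. Both falls were lost without day 8 C, that of Etv2 also without day 6 B and that of Kit also without day 6 C. The calls of Tek, Ramp2 and Esam were kept without each array. Pecam1 was dim at 2.67 and 3.10 (2.63 on A), against 2.60 and 3.40, and Tie1, Tal1 and Cd34 were dim over the series. Cdh5, the vascular cadherin, read 3.96 and 4.03 (2.66 on A), against 2.50 and 2.47 (adjusted p = 0.133).

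Epicardial and mesothelial genes rose in 3 of 16 tested (18.8%) and fell in 1 (6.25%), against 3.48% and 1.7% of all genes. Upk3b, a uroplakin of mesothelium, read 9.01 and 7.94 on day 8 B and C (4.34 on A), against 3.12 and 5.23 on day 6, 19.7-fold higher (adjusted p = 0.000289). Bnc1, a zinc finger factor of mesothelium, read 9.85 and 10.53 (8.82 on A), against 8.04 and 8.52, 3.76-fold higher (adjusted p = 0.000795), and Upk1b was at least 1.89-fold higher at 4.89 and 4.94 (2.42 on A), against 2.42 and 2.41. Lrrn4 was 3.21-fold lower at 6.17 and 6.09 (7.78 on A), against 7.89 and 7.73, a call lost without any 1 of the 4 arrays. Wt1, Tcf21 and Tbx18, the factors that define epicardium, were not called. Wt1 read 4.50 and 3.92 (3.31 on A), against 3.33 and 4.15, and Tcf21 and Tbx18 were under the cutoff on all 5 arrays.

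Yolk sac genes, several of them for serum proteins, were higher on day 8 B than on C. Rbp4, the retinol carrier, read 7.31 and 5.35 on day 8 B and C (2.71 on A), against 2.74 and 3.09 on day 6, at least 5.03-fold higher (adjusted p = 0.0176). Ttr, transthyretin, read 9.78 and 7.74 (3.75 on A), against 5.15 and 6.45, 7.78-fold higher (adjusted p = 0.0299). They were the 2 rises among 12 tested (16.7%, against 3.48% of all genes), and both were lost without day 8 B or either day 6 array. The mean over the 12 was 6.50 and 5.01 (4.04 on A), against 4.63 and 4.88, so that B stood above C and A below day 6. Spink1 read 8.55 and 6.02 (3.34 on A), against 5.73 and 5.67, and Apob 7.85 and 3.80 (4.01 on A), against 5.25 and 6.65, neither called. Afp was dim at 3.00 and 2.78 (2.79 on A), against 2.80 and 2.75.

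Imprinted genes gave 2 rises (10.5%) and 1 fall (5.26%) among 19 tested, against 3.48% and 1.7% of all genes. Dlk1, a paternally expressed Notch-like membrane protein, read 11.68 and 11.89 on day 8 B and C (7.75 on A), against 7.81 and 8.38 on day 6, 12.9-fold higher (adjusted p = 2e-06). Plagl1, a paternally expressed zinc finger factor, read 13.24 and 13.64 (10.22 on A), against 10.34 and 10.61, 7.82-fold higher (adjusted p = 1.13e-05), although 1 of its 2 other probe sets differed by 0.07. Phlda2, a maternally expressed growth restrictor, read 11.09 and 11.09 (12.61 on A), against 12.66 and 12.55, 2.87-fold lower, a call lost without day 8 C or either day 6 array. Day 8 A lay -9.4, -8.5 and -0.1% of the way to B and C in the 3 genes. Igf2 was at 14.02 and 14.03 (13.54 on A), against 13.66 and 13.87.

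Of 27 genes of fatty acid use and mitochondrial energy, 1 rose (3.7%, against 3.48% of all genes) and 0 fell. It was Esrrg, a nuclear receptor of oxidative muscle, at 6.53 and 6.70 on day 8 B and C (3.42 on A), against 3.43 and 3.42 on day 6, at least 6.15-fold higher (adjusted p = 5.58e-05). Of 21 glycolysis genes, 2 fell (9.52%, against 1.7% of all genes) and 0 rose, and both calls were lost without day 8 B, day 8 C or day 6 C. Aldoc, a glycolytic aldolase, read 4.29 and 4.52 (5.70 on A), against 5.95 and 6.27, 3.27-fold lower. Pfkl, a phosphofructokinase, read 10.15 and 9.83 (9.94 on A), against 10.82 and 11.26, 2.06-fold lower, with A between B and C. Epithelial and neural genes gave 0 calls among 20 and 10 tested. Krt8 read 13.23 and 13.10 (13.19 on A), against 12.91 and 12.94. Of the neural genes 14 of 24 on the array, Pax6 and Sox1 among them, were dim over the series.

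Day 8 A was set against the 560 called genes as a description, since its position was the reason it was left out. Its place was measured as the percent of the way between the day 6 mean (0) and the mean of day 8 B and C (100). Among the 376 risen genes its median was 3.5%, with quartiles of -4.6 and 17.5%. Among the 184 fallen genes it was 19.8%, with quartiles of 3.6 and 35.3%. A lay above both day 6 arrays for 167 of the risen genes and below both for 126 of the fallen. It lay nearer to B and C than to day 6 for 12 risen genes (3.19%) and 23 fallen genes (12.5%). Examples, picked after their values were seen, are Ankrd1, Evx1, Mixl1 and Hoxc10 above, and Vcam1, an adhesion molecule, at 5.37 and 5.52 on day 8 B and C and 4.96 on A, against 2.96 and 4.16 on day 6.

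**Figure D5:**
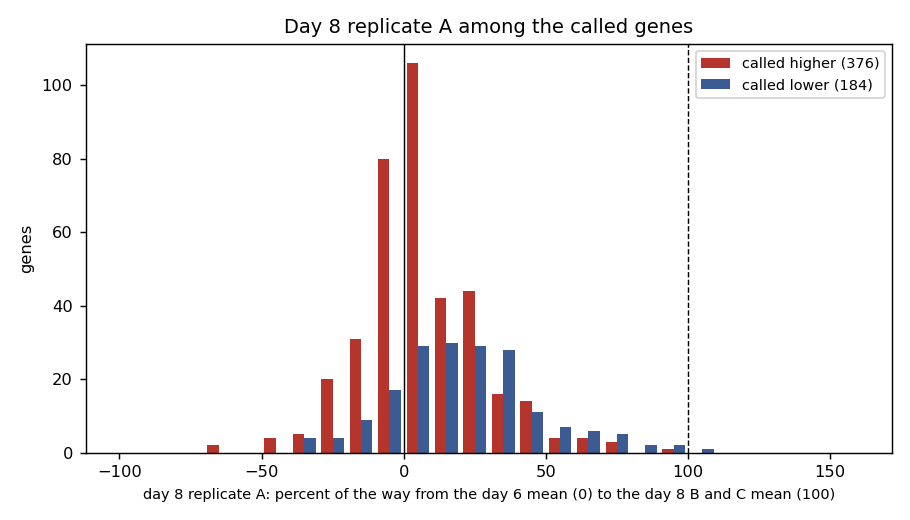
Number of called genes (vertical) by the place of day 8 A between the day 6 mean (0, solid line) and the mean of day 8 B and C (100, dashed line), in percent (horizontal). Red bars are the 376 genes called higher and blue bars the 184 called lower. Red bars gather around 0, with a median of 3.5%, and blue bars are spread to about the dashed line, with a median of 19.8%.

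Day 8 C was farther from day 6 than day 8 B was. It was the higher of the 2 in 295 of the 376 risen genes and the lower in 150 of the 184 fallen. The median of C minus B was 0.40 in the risen genes and -0.31 in the fallen, while the day 6 arrays differed from each other by a median of 0.19 and 0.20.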

How the data were processed

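RNA of 16 P19CL6 cultures was measured on 16 arrays. The authors deposited log2 values made with GCRMA, per the submitters' processing notes, with no version given in the sources used here. The base of the logarithm is not stated and was read from the range, 0.86 to 15.9. All columns were used (0 left aside). Of 45101 probe sets, 34945 name 1 gene, and the Entrez identifiers of 34741 of them were in the RefSeq table. The 18970 above log2 4 on at least 2 arrays were tested, and each of 10802 genes was read from the tested probe set with the highest mean.

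Groups come from the titles. limma 3.58.1 in R 4.3.3 (lmFit, eBayes) fitted 1 mean per group to 15 arrays without day 8 A (9 residual and 3.43 prior degrees of freedom), and to all 16 (10 and 3.39). Adjusted p-values are over all tested probe sets. The remaining probe sets, of several genes or of no named gene, were fitted apart. The fit was tested on simulated data. Named are the 15 largest rises and falls among called genes with no overlap between the groups (values under 4 set to 4), the markers Hbb-bh1, Myl7, Cxcr4 and Foxf1, and up to 5 called members of each of 29 gene lists in each direction, by size. The other called or uncalled list members complete a family. The comparison, the lists and the rule were chosen with earlier results of these data known, so that they are no independent support. The alternatives changed the filter, floor, scaling, variance model, block, arrays, probe sets and thresholds. The number of arrays limits the precision.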

Additional observations from a re-analysis of the deposited data

Results flagged for a closer look

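Outside the comparison of single genes, 16 of 535 tested probe sets that name several genes were called between day 8 B and C and day 6 (2.99%), 12 of them higher, and 0 with all 3 day 8 arrays. Of these, 3 name the adult alpha globins Hba-a1 and Hba-a2 together, and were singled out after their values were seen. The brightest of them read 10.62 and 11.70 on day 8 B and C (1.90 on A), against 1.99 and 1.89 on day 6. The others read 9.92 and 10.72 (2.43 on A), against 2.43 and 2.40, and 6.20 and 7.97 (1.26 on A), against 1.26 and 1.25. The probe set of Hoxb7 and Hoxb8 read 2.32 and 2.22 (2.22 on A), against 5.31 and 5.89.

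Of 1685 tested probe sets that carry no gene name here, 31 were called (1.84%), 16 higher and 15 lower, and 3 with all 3 day 8 arrays. Day 8 A, the array outside the comparison, lay above both day 6 arrays for 167 of the 376 genes called higher and below both for 126 of the 184 called lower.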

How the results depend on the processing

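The counts of probe sets called higher and lower, 601 and 299 from day 8 B and C, stayed within 1.5 times under changes of the filter, floor, scaling, variance model, block, arrays in the fit, probe sets and minimum difference, between 404 and 758 higher and 209 and 435 lower. At an adjusted p under 0.01 they were 357 and 130. Leaving out 1 array gave 275 to 550 higher and 74 to 289 lower, the lowest without day 8 C. From all 3 day 8 arrays, 0 and 4 became 2 and 7 with values under 4 set to 4. Lower calls were 2 with a variance trend or with 1 probe set per gene, and 0 at an adjusted p under 0.01 or with only the compared arrays. Leaving out 1 array gave 0 to 3 higher and 1 to 4 lower. The causes were not tested. Of the 115 genes that the naming rule gives, 63 kept their call without each array, and all 115 lost it with day 8 A in the group. With only the compared arrays fitted, 31 of the 115 lost the call, and 579 of the 900 probe sets called from B and C were called again. Without the filter on dim probe sets 18 of the 115 lost it, and with values under 4 set to 4 11 did. The alternatives reuse the same arrays, and 0 of the 115 reversed sign under any.

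Replicate letters recur across groups, and the B minus C deviations of day 8 and day 6 correlated at -0.155. Between other neighbouring groups such deviations correlated at 0.127 (day 4 and growth), -0.409 (day 10 and day 8) and 0.355 (day 12 and day 10, A minus C), so the signs differed and the letters were not taken as pairs. With the replicate block 626 were higher and 311 lower, and 2 and 5 from all 3 arrays. With the day 8 letters crossed, an alternative added after seeing the data, 648 and 346. Where a group is dim, signal over background limits the fold to a bound.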
